A study of Mus musculus with 37 samples.

Results

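The 9 genes Sele, Selp, Icam1, Vcam1, Vwf, Thbd, F3, Procr and Plat encode proteins that vascular endothelium uses to capture leukocytes and to start, restrain or dissolve clots. They were picked by gene name from a table of 56748 genes, and each name matched a single row. Their levels were followed in left ventricular tissue of 37 mouse hearts in 9 groups, measured by bulk RNA sequencing. All mice were C57BL/6J, male and female, aged 8 to 10 weeks, and all were anesthetized. Naive mice (n = 5) were neither intubated nor injected. Adr mice were intubated, received saline into the left ventricle and, 8 min later, 500 µL of adrenaline at 15 µg/mL into the ventricle; GEO's labels call them sham. Arrest mice received potassium chloride instead of saline, spent 8 min in asystole, and were then revived with the same adrenaline dose and chest compressions. Adr and Arrest hearts were collected after 0.5, 1, 3 and 7 days, with 4 libraries in each of these 8 groups. The labels give no link between libraries beyond group and number, so p-values here measure the spread between these libraries.

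Resting endothelium presents a surface to which leukocytes and platelets hardly adhere. When activated by inflammatory cytokines, thrombin or ischemia followed by reperfusion, it displays selectins that make leukocytes roll, then ICAM-1 and VCAM-1, which hold them through integrins. The same cells carry thrombomodulin and the endothelial protein C receptor, a pair that turns thrombin into an activator of the anticoagulant protein C, while tissue factor on cells outside the lumen starts coagulation once plasma reaches it. P-selectin and von Willebrand factor are also stored as finished protein in endothelial granules and can be released without new RNA, so RNA levels cover only the synthesis side.

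Promoter sequence is shown for 4 genes, the inducible adhesion genes Sele, Selp and Icam1 and, beside them, F3, whose fitted change from Naive was below 0 in every group. Whether these letters bear on the levels was not tested. The windows are the 250 bases before the start of each gene from RefSeq (GRCm38.p6, plus strand, 5′ to 3′). They lie at chr1:164047984-164048233 for Sele, chr1:164115014-164115263 for Selp, chr9:21015690-21015939 for Icam1 and chr3:121723287-121723536 for F3. Capitals mark matches on either strand, and no marked matches overlap. The letters searched were GGANNTTCC, a form of the motif of the inflammatory factor NF-κB. For the stress-responsive factor AP-1 they were TGANTCA. For the box at which the transcription machinery is placed they were TATAAA.
Sele: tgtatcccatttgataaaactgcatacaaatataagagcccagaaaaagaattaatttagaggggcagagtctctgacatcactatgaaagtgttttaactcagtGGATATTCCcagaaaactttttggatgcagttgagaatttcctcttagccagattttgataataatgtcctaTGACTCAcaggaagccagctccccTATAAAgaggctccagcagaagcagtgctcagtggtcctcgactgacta
Selp: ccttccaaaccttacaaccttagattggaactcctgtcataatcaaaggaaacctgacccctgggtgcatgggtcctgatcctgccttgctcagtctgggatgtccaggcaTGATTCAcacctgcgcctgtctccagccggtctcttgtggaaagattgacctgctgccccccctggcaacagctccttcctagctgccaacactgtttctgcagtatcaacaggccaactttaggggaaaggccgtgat
Icam1: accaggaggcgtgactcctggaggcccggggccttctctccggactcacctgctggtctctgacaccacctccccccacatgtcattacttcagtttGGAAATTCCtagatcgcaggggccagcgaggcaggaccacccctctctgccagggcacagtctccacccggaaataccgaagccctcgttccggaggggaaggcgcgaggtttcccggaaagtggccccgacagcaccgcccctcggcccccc
F3: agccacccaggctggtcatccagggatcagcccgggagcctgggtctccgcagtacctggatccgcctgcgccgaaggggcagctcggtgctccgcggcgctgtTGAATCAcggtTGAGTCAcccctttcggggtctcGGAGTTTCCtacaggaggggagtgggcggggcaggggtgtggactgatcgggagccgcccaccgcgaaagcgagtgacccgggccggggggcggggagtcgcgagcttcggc

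GGANNTTCC was present in the windows of Sele, Icam1 and F3, and in 3.59% of all 32851 windows of this length in the table. TGANTCA was present in Sele, Selp, F3 (at 2 places) and Procr, and in 6.75% of all windows. TATAAA was present in Sele alone of the 5 genes with a window, and in 12.4% of all windows. F3 held matches to the same NF-κB and AP-1 letters as Sele. These are descriptions of letters, not of bound sites. Windows were not at hand for Vcam1, Vwf, Thbd and Plat.

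The table places the genes on a build that was not given in the sources used here, and these positions are not those of the promoter windows. Sele (ENSMUSG00000026582) lies at chr1:163875803-163885246 and Selp (ENSMUSG00000026580) at chr1:163942833-163977595, both on the plus strand, 57586 bases apart. The other adhesion genes are Icam1 (ENSMUSG00000037405, chr9:20927281-20940113, plus), Vcam1 (ENSMUSG00000027962, chr3:115903598-115923337, minus) and Vwf (ENSMUSG00000001930, chr6:125523737-125663642, plus). The genes of coagulation and fibrinolysis are Thbd (ENSMUSG00000074743, chr2:148246386-148250108, minus), F3 (ENSMUSG00000028128, chr3:121517186-121528697, plus), Procr (ENSMUSG00000027611, chr2:155593037-155597391, plus) and Plat (ENSMUSG00000031538, chr8:23247743-23272860, plus). The values cover whole genes, not single exons.

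Values are FPKM, fragments scaled by gene length and library size, so levels can be set side by side between genes. Libraries held 13.2 M to 30.2 M fragments, recovered from the steps of the FPKM values. In Adr 3 d replicate 3 mitochondrial genes took 9.36% of fragments against 20.8% to 30.9% in the other 36 libraries, its summed ventricular cardiomyocyte markers were lowest at 3793 FPKM against a median of 15200, and its monocyte and macrophage markers highest at 3098 against a median of 636. Naive replicate 4 had the fewest genes above 0, 13475 against 15398 or more elsewhere. Endothelial markers were present in every library, at a summed 322 to 561 FPKM over 14 genes. In whole tissue, fewer cells of a type and less RNA per cell cannot be told apart. Tests are limma fits of log2(FPKM + 1) over 16530 genes, all 37 libraries in a single model, with Benjamini-Hochberg adjustment within each comparison; a gene is called at an adjusted p of at most 0.05. All 9 genes passed the filter on low values, though Sele reached the 0.5 FPKM of that filter in 16 libraries and Selp in 18.

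Thbd, which encodes thrombomodulin, was the most abundant of the 9, with a median of 36.97 FPKM over all libraries, ahead of Vwf at 20.3 FPKM. F3 (7.19), Icam1 (5.51), Plat (5.15) and Vcam1 (5.10) were at intermediate median FPKM, and Procr (1.38), Selp (0.484) and Sele (0.465) were low. Selp and Sele values rested on medians of 33 and 19 fragments per library, against 2201 for Thbd. Selp had 0 fragments in 3 libraries, Sele in 4 and Procr in 1, where a count of 0 allows up to 3 fragments, worth 0.0209 to 0.0526 FPKM for Selp, 0.0317 to 0.0797 for Sele and 0.0454 to 0.114 for Procr. This floor covers counting error only.

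**Figure D1:**
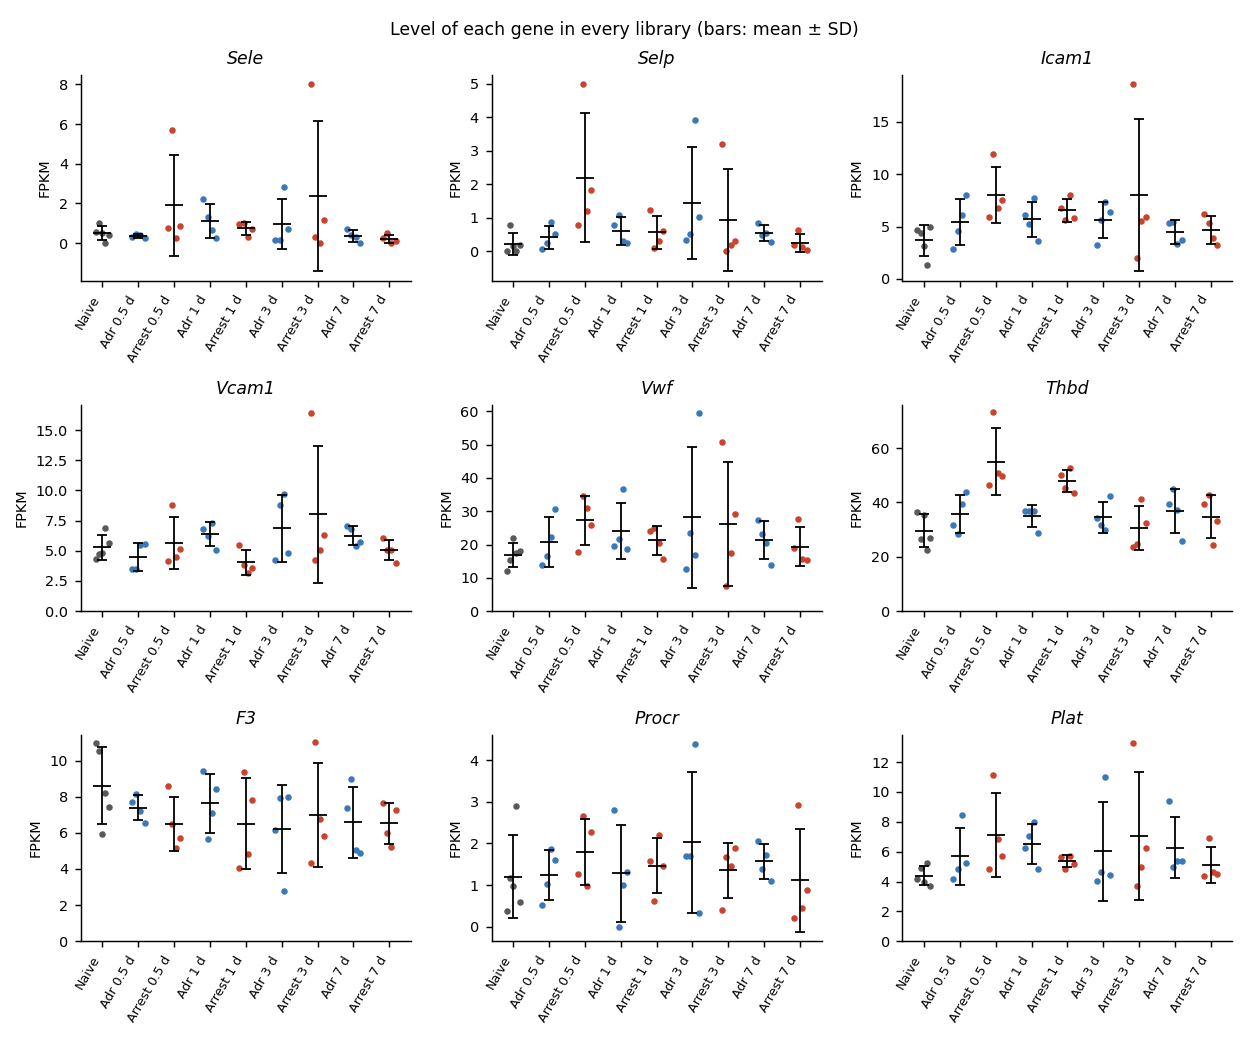
FPKM (vertical axes, linear, a separate scale per gene) of the 9 genes in each of the 37 libraries (points; grey Naive, blue Adr, red Arrest), with the mean and SD of each group (bars). Thbd in Arrest 0.5 d (46.5 to 73.4 FPKM) and Arrest 1 d (43.6 to 52.5) lies above all Naive points (22.4 to 36.6). The high means of Sele, and those of Selp outside Arrest 0.5 d, rest on single libraries of a few groups. For Selp in Arrest 0.5 d, all but the lowest point lie above all Naive points (up to 0.799 FPKM). The highest (4.999 FPKM) raises that mean.

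Thbd rose in Arrest hearts at 0.5 and 1 d. The 5 Naive libraries held 36.6, 26.6, 35.3, 22.4 and 26.9 FPKM. The 4 Arrest 0.5 d libraries held 46.5, 73.4, 50.7 and 49.6 FPKM, and the 4 Arrest 1 d libraries 50.2, 45.4, 52.5 and 43.6. No library of either Arrest group overlapped with Naive, a separation seen in 4.49% of all genes tested at 0.5 d and in 5.71% at 1 d. Mean levels were 55.0 ± 12.4 FPKM at 0.5 d (SD, n = 4) and 47.9 ± 4.12 at 1 d (SD, n = 4) against 29.5 ± 6.11 in Naive (SD, n = 5), ratios of 1.86 and 1.62. The log2 fold change was 0.88 at 0.5 d (SE 0.18, 95% confidence interval 0.50 to 1.25, limma adjusted p = 0.00802) and 0.70 at 1 d (SE 0.18, 0.32 to 1.07, limma adjusted p = 0.0183).

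These calls were not equally stable. Without Arrest 0.5 d replicate 2, the highest Thbd library of the study, the 0.5 d change was 0.73 with a limma adjusted p of 0.066. At 1 d the call was lost without Arrest 1 d replicate 1 (limma adjusted p = 0.0569), Arrest 1 d replicate 3 (0.0697) or Naive replicate 4 (0.0504). It was also lost with the number in each sample's description as a covariate, where the change was 0.45 (limma adjusted p = 0.495). What that number stands for is not given in the labels; it ran from 116 to 127 in Naive and from 70 to 95 in Arrest 1 d, so the number and these groups cannot be told apart.

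By 3 d the Arrest libraries held 23.5, 24.8, 41.1 and 32.3 FPKM of Thbd, and at 7 d 39.3, 42.6, 24.2 and 33.1. Both groups overlapped with Naive, with log2 fold changes of 0.03 (SE 0.18) and 0.22 (SE 0.18). In Adr hearts Thbd lay between 25.8 and 45.0 FPKM at all 4 times, and the fitted change from Naive was 0.23 to 0.31, uncalled at each time. The 0.5 d Adr libraries, at 31.6, 28.2, 39.3 and 43.9 FPKM, did not overlap with Arrest 0.5 d either, and nor did Adr 1 d with Arrest 1 d. The direct test of Arrest against Adr gave 0.60 at 0.5 d (SE 0.19, 95% confidence interval 0.21 to 1, unadjusted p = 0.0039, limma adjusted p = 1) and 0.45 at 1 d (SE 0.19, 0.05 to 0.84, unadjusted p = 0.0272, limma adjusted p = 0.725). Neither passed the test over all genes. Groups separated in this way in 1.72% of all genes at 0.5 d and in 1.63% at 1 d.

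Selp, the gene of P-selectin on platelets and endothelium, was the other gene called. Naive libraries held 0, 0.799, 0.155, 0 and 0.202 FPKM, from 0 to 56 fragments each. Arrest 0.5 d libraries held 0.776, 4.999, 1.21 and 1.83 FPKM, from 48 to 373 fragments each. All but the lowest Arrest 0.5 d library lay above every Naive library. Means were 2.20 ± 1.91 (SD, n = 4) and 0.231 ± 0.330 FPKM (SD, n = 5), a ratio of 9.53, and the log2 fold change was 1.24 (SE 0.36, 95% confidence interval 0.51 to 1.97, limma adjusted p = 0.0474). The fold depends on how low values are treated: with 0.1 in place of 1 added before the logarithm it was 2.96. The call stood in 4 of 12 other settings, lost with quantile or fragment scaling, no filter, the length trend removed, a covariate, a replicate block (limma adjusted p = 0.102) or the 2 groups alone. Among the 4, the setting without rescaling changed only a factor common to all libraries, so it could hardly lose the call. The Selp call stood in 11 of 37 fits that left out a single library, and without Arrest 0.5 d replicate 2 the change was 0.89 (limma adjusted p = 0.25).

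At 1 d Arrest libraries held 0.103 to 1.25 FPKM of Selp, the highest of them above the Naive range (up to 0.799), and at 7 d 0.0542 to 0.645. Within the Arrest arm, 0.5 d exceeded 7 d without overlap, as seen in 5.27% of all genes. The difference was 1.20 on the log2 scale (SE 0.38, unadjusted p = 0.00327, limma adjusted p = 0.161). Arrest exceeded Adr at 0.5 d by 1.03 (SE 0.38, unadjusted p = 0.01, limma adjusted p = 1). Neither passed the test over all genes. Adr 3 d held 0.325, 0.520, 3.92 and 1.02 FPKM, the 3.92 from the library with few mitochondrial and cardiomyocyte transcripts, and its change from Naive of 0.81 (unadjusted p = 0.0301, limma adjusted p = 0.306) was 0.34 without that library and Naive replicate 4.

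Sele, the gene of E-selectin, which is made mainly by activated endothelium, was low in most libraries. Naive libraries held 0.549, 1.02, 0.497, 0 and 0.434 FPKM. Arrest 0.5 d libraries held 0.760, 5.71, 0.265 and 0.873 FPKM, and Arrest 3 d libraries 8.02, 0.322, 0 and 1.15. A single library in each of these groups was far above the rest. The others lay within the Naive range, except the Arrest 3 d library at 1.15, which was just above it. The means, 1.90 ± 2.55 and 2.37 ± 3.80 FPKM (SD, n = 4 each) against 0.499 ± 0.362 in Naive, thus describe few hearts, and the log2 fold changes of 0.65 (SE 0.44) and 0.62 (SE 0.44) were not called (limma adjusted p = 0.465 and 0.566). The next highest Sele levels were in Adr 3 d replicate 3 (2.83 FPKM) and Adr 1 d replicate 1 (2.24).

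Icam1, whose product binds the leukocyte integrins LFA-1 and Mac-1, stood above Naive in every early Arrest library but was not called. The Naive libraries held 4.65, 4.36, 3.19, 1.33 and 4.995 FPKM. Arrest 0.5 d libraries held 5.91, 11.9, 6.77 and 7.58 FPKM, and Arrest 1 d libraries 6.76, 5.61, 8.01 and 5.81. The groups did not overlap at either time, a separation seen in 4.49% of all genes tested at 0.5 d and in 5.71% at 1 d. A single Naive library (1.33) lay below the other Naive libraries and lowers the Naive mean. The log2 fold change was 0.97 at 0.5 d (SE 0.34, limma adjusted p = 0.106) and 0.74 at 1 d (SE 0.34, limma adjusted p = 0.19). Leaving out Arrest 3 d replicate 1, which enters only through the shared estimate of spread, brought the 0.5 d adjusted p to 0.0441 in limma. That was the only 1 of 37 fits without a single library in which Icam1 was called at 0.5 d. Over these fits the change ran from 0.74 to 1.09 and the limma adjusted p reached 0.324. Icam1 was called at 0.5 d in 0 of 13 other settings. With the description number as a covariate the 1 d change was -0.06. Adr libraries held 2.85 to 8.03 FPKM over all times and overlapped with Naive at each.

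Vcam1, the ligand of the integrin VLA-4, showed no rise in Arrest hearts at 0.5 d, with 4.13, 8.80, 4.51 and 5.10 FPKM against 4.29 to 6.90 in Naive (log2 fold change 0.04, SE 0.25). At 1 d the Arrest libraries held 5.50, 3.82, 3.17 and 3.61 FPKM and the Adr libraries 6.84, 6.21, 7.33 and 5.07. Arrest was thus lower than Adr by -0.56 on the log2 scale (SE 0.26, unadjusted p = 0.0409, limma adjusted p = 0.731), with a single library on each side overlapping. Its highest level, 16.4 FPKM, was in Arrest 3 d replicate 1.

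Vwf, the gene of the multimer that tethers platelets to injured vessel wall, had means above Naive in all 8 groups and was called in none. Naive libraries held 12.03 to 21.99 FPKM and Arrest 0.5 d libraries 17.7, 34.7, 30.9 and 25.8, which the fit put at 0.64 on the log2 scale (SE 0.37, limma adjusted p = 0.37). The widest spread was at 3 d. Adr 3 d libraries held 12.7, 23.6, 16.9 and 59.4 FPKM, and Arrest 3 d libraries 51.0, 7.60, 17.4 and 29.1. The highest and the lowest Vwf level of all 37 libraries were both at 3 d, in other hearts than the extremes of Thbd.

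F3, tissue factor, the cell-surface cofactor that starts coagulation and is made by cardiomyocytes and perivascular cells, was the only gene of the 9 whose fitted change was below 0 in all 8 groups. Naive libraries held 11, 10.5, 5.93, 8.21 and 7.44 FPKM. The lowest mean was in Adr 3 d (6.21 ± 2.46 FPKM, SD, n = 4) against 8.62 ± 2.12 in Naive (SD, n = 5), and the changes ran from -0.47 (Adr 3 d, SE 0.24, limma adjusted p = 0.39) to -0.15 (Adr 1 d, SE 0.24). All 8 groups overlapped with Naive, none was called, and the 8 comparisons share the same Naive libraries. Its lowest value, 2.75 FPKM, was again in Adr 3 d replicate 3.

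Procr, the endothelial protein C receptor and partner of thrombomodulin, was not called in any group. Arrest 0.5 d libraries held 1.27, 2.65, 0.982 and 2.27 FPKM against 0.378, 1.18, 0.974, 2.90 and 0.586 in Naive. The groups overlapped, and the log2 fold change of 0.39 had a 95% confidence interval from -0.35 to 1.14 (limma adjusted p = 0.617), so a change as large as that of Thbd lies within it. The Procr libraries held a median of 46 fragments, which limits what this comparison can show.

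Plat, tissue plasminogen activator, which endothelium secretes to start fibrinolysis, held 4.82, 11.1, 6.87 and 5.72 FPKM in Arrest 0.5 d against 4.15, 4.89, 3.98, 5.26 and 3.70 in Naive. A single Arrest 0.5 d library overlapped with Naive. The log2 fold change was 0.54 (SE 0.26, unadjusted p = 0.0433, limma adjusted p = 0.257), and at 1 d 0.24 (SE 0.26). In Adr 1 d it was 0.47 (SE 0.26, limma adjusted p = 0.397). Plat levels over 9 FPKM were otherwise seen only in 1 library each of Adr 3 d (10.98), Arrest 3 d (13.3) and Adr 7 d (9.36).

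**Figure D2:**
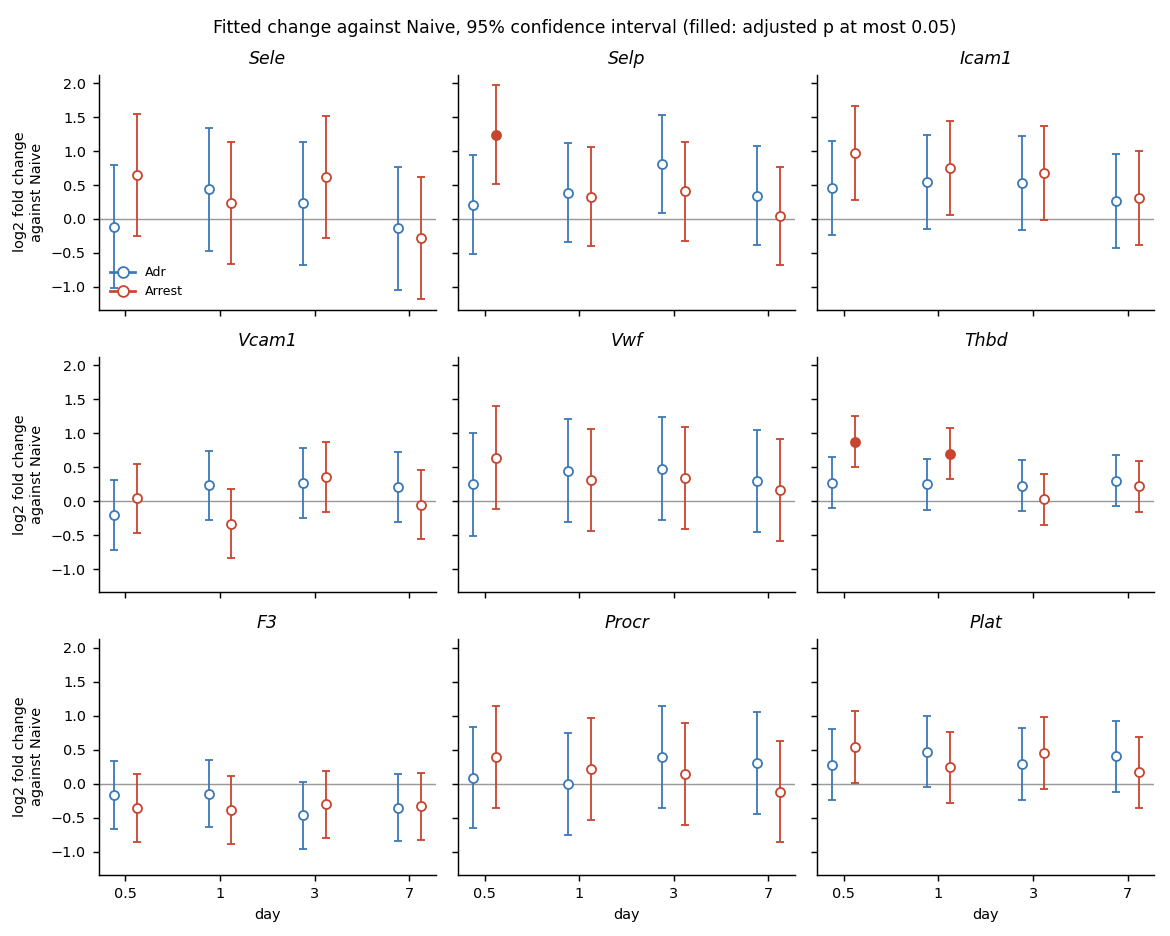
Fitted log2 fold change against Naive (vertical axis) by day (horizontal axis, evenly spaced) for Adr (blue) and Arrest (red), with 95% confidence intervals; filled points have a limma adjusted p of at most 0.05. The filled points are Selp in Arrest 0.5 d (1.24) and Thbd in Arrest 0.5 d (0.88) and 1 d (0.70), and all points of F3 lie below 0.

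Over the 9 genes together, Arrest 0.5 d was the group with most calls. There 2 of 9 genes were called higher, against 1.75% of all genes tested, and 8 of 9 had a fitted change above 0, against 54% of all genes. The median change of the 9 was 0.64 on the log2 scale, beside 0.03 over all genes tested. In Arrest 1 d, 1 of 9 was called higher, against 3.88% of all genes, and the median was 0.24 beside 0.03. The count at 0.5 d was 1 in 9 of 13 other settings, through loss of Selp, and lay between 0 and 3 with single libraries left out. The count at 1 d was 0 in 3 of 13 other settings and between 0 and 1 with single libraries left out. Leaving out Adr 3 d replicate 3 and Naive replicate 4 together, a choice made after seeing the data, left 2 and 1 genes called.

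No gene of the 9 was called in the other 6 comparisons with Naive by limma. The share of all genes called in either direction was 0.188% in Adr 0.5 d, 0.69% in Adr 1 d, 0% in Adr 3 d, 0.139% in Arrest 3 d, 0% in Adr 7 d and 0% in Arrest 7 d. At an unadjusted p of at most 0.05, Selp in Adr 3 d was the only one of the 9 in these 6 comparisons, where 7.67% of all genes were higher at that p. The median change of the 9 was 0.21 in Adr 0.5 d, 0.39 in Adr 1 d, 0.29 in Adr 3 d, 0.36 in Arrest 3 d, 0.30 in Adr 7 d and 0.05 in Arrest 7 d, beside 0.01 to 0.04 over all genes. These medians share the Naive libraries and are not separate evidence.

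Between the arms none of the 9 was called by limma at any time, where 0% of all genes were called at 0.5, 1 and 3 d and 0.00605% at 7 d. At an unadjusted p of at most 0.05, Thbd and Selp were higher in Arrest at 0.5 d, against 2.09% of all genes, and Thbd higher and Vcam1 lower at 1 d, against 6.59% of all genes in either direction. Between times within an arm none was called by limma either. At an unadjusted p of at most 0.05, Selp was higher in Arrest 0.5 d than 1 d, Selp and Thbd higher in Arrest 0.5 d than 7 d, and Thbd higher in Arrest 1 d than 7 d. These 1, 2 and 1 of 9 genes stand beside 1.49%, 6.19% and 7.72% of all genes higher at that p. The share of all genes called was 0% for Adr 0.5 against 1 d, 0.00605% for Adr 0.5 against 7 d, 0.0423% for Adr 1 against 7 d, 0% for Arrest 0.5 against 1 d, 0.381% for Arrest 0.5 against 7 d and 1.89% for Arrest 1 against 7 d. The Arrest comparisons with 7 d use the Naive libraries only through the shared estimate of spread. Compared with 7 d, Thbd was 0.65 higher at 0.5 d (SE 0.19, unadjusted p = 0.002, limma adjusted p = 0.136). At 1 d it was 0.48 higher (SE 0.19, unadjusted p = 0.0196, limma adjusted p = 0.215). There was no overlap at either time, as seen in 5.27% and 6.57% of all genes. For each of the 9 genes, all 8 neighbouring pairs of groups in the order of mean level overlapped. In 8 genes all neighbours were within 1 SD of each other. The exception was Thbd, where Arrest 1 d stood 1.73 SD above the next group, Adr 7 d.

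**Figure D3:**
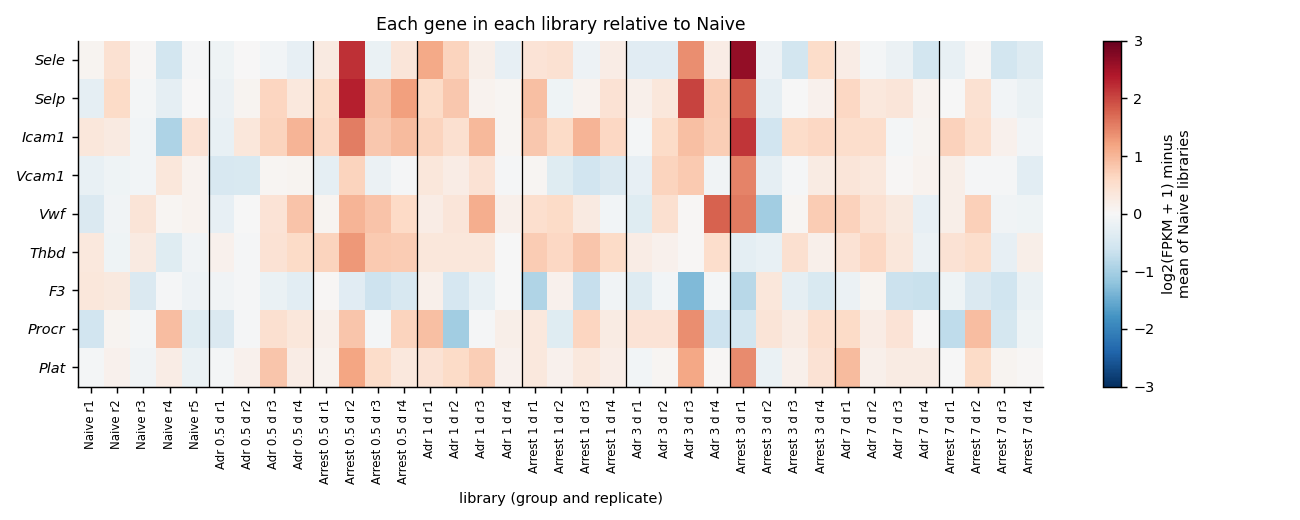
Each gene (rows) in each of the 37 libraries (columns, by group and replicate, lines between groups), as log2(FPKM + 1) minus the mean of the Naive libraries, from blue (lower) to red (higher). Arrest 0.5 d replicate 2, Adr 3 d replicate 3 and Arrest 3 d replicate 1 stand out in several rows at once, and F3 is blue in the latter 2.

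Single hearts were high for several of the 9 genes at once. Arrest 0.5 d replicate 2 was among the 3 highest libraries for 6 of the 9 genes (Sele, Selp, Icam1, Vcam1, Thbd and Plat). Arrest 3 d replicate 1 was among the 3 highest for 6 (Sele, Selp, Icam1, Vcam1, Vwf and Plat) and the highest for 4 of them. Adr 3 d replicate 3 was among the 3 highest for 5 (Sele, Selp, Vcam1, Procr and Plat). Thbd separated these hearts: it was 73.4 FPKM in the Arrest 0.5 d heart but 23.5 in the Arrest 3 d heart and 29.7 in the Adr 3 d heart, both within the Naive range.

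Other cell markers were measured in these hearts. The 9 neutrophil markers, of which Ly6g was at 0 in every library, summed to 35.9, 32.4 and 35.6 FPKM in them, against a median of 7.03 over all libraries. They were as high in Adr 0.5 d replicate 4 (34.6 FPKM) and reached 24.2 in Adr 3 d replicate 4. In Adr 0.5 d replicate 4, Icam1 (8.03 FPKM), Vwf (30.7) and Thbd (43.9) lay above all Naive libraries. The other genes of the 9 lay within the Naive range there, Sele at 0.238 FPKM and Selp at 0.507. The 14 endothelial markers summed to 549 and 561 FPKM in the Arrest 0.5 d and Arrest 3 d hearts, the highest of all, and to 397 in the Adr 3 d heart, near the median of 394. The 10 platelet markers, of which Gp1bb was at 0 in every library, summed to 73.6, 94.3 and 294 FPKM against a median of 53.8. The Arrest 3 d heart also had 8753 FPKM of ventricular cardiomyocyte markers against the median of 15200. Their part in the levels of the 9 genes was not tested.

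Across the 37 libraries, 25 of the 36 pairs among the 9 genes had a Pearson r of log2(FPKM + 1) above 0, and 12 had 0.5 or more. These points include the group differences and share depth and tissue composition. The highest was between the neighbours Sele and Selp (r = 0.81, Spearman rho = 0.60, n = 37), which fell to r = 0.66 without the 2 libraries farthest from the Sele median. Selp and Plat had r = 0.79 (rho = 0.70) and Icam1 and Selp 0.71 (rho = 0.67). F3 had r below 0 with all 8 others, from -0.51 with Plat to -0.08 with Thbd. Thbd had its highest r with Icam1 (0.48, rho = 0.58), and Procr had no r above 0.33.

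The genes most like each of the 9 over these libraries differed accordingly. Those closest to Selp were Ereg (r = 0.86), Sele and Plat, and those closest to Sele were Chil3 (0.83), Selp and Ereg (0.80). Plat was closest to Ereg (0.82) and Rpl3 (0.81). Icam1 was closest to the endothelial genes Pecam1 (0.82) and Entpd1 (0.81) and to Man2a1 (0.80), and Vwf to Ece1 (0.80) and Entpd1 (0.78). Vcam1 was closest to F2r (0.80), a thrombin receptor, Itgb1 (0.79), the beta chain of its integrin ligand, and the pseudogene Rpl3-ps1 (0.72). Thbd was closest to Gfpt2 (0.74), an unnamed gene with the identifier ENSMUSG00000121069 (0.74) and Rassf1 (0.73). F3 was closest to 2510002D24Rik (0.69), Yipf7 (0.65) and Mrrf (0.63), and Procr to Arhgap9 (0.65), Snx18 (0.60) and Parp9 (0.60). All 37 libraries enter each r; without the 2 libraries farthest from the median of the gene in question, these r ran from 0.47 to 0.82.

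The rise of Thbd was set beside 14 endothelial markers. In Arrest 0.5 d, 2 of them were called higher and 1 lower, with a median change of 0.17. Of all 16530 genes tested, 290 were called higher and 241 lower there. Emcn rose by 0.60 (SE 0.13, limma adjusted p = 0.0107) and Esam by 0.59 (SE 0.15, limma adjusted p = 0.0285). Kdr, the main VEGF receptor, fell by 0.95 (SE 0.22, limma adjusted p = 0.0181). In Arrest 1 d, Esam (0.52) and Egfl7 (0.43) were called higher and Kdr (-0.92) and Cdh5, VE-cadherin (-0.42), lower, with a median of 0.11. Of all genes tested, 641 were called higher and 535 lower in that group. The summed markers lay between 385 and 549 FPKM in Arrest 0.5 d, between 322 and 464 in Arrest 1 d and between 355 and 394 in Naive. The fitted change of Thbd was above that of all 14 at both times, a difference that was not tested.

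**Figure D4:**
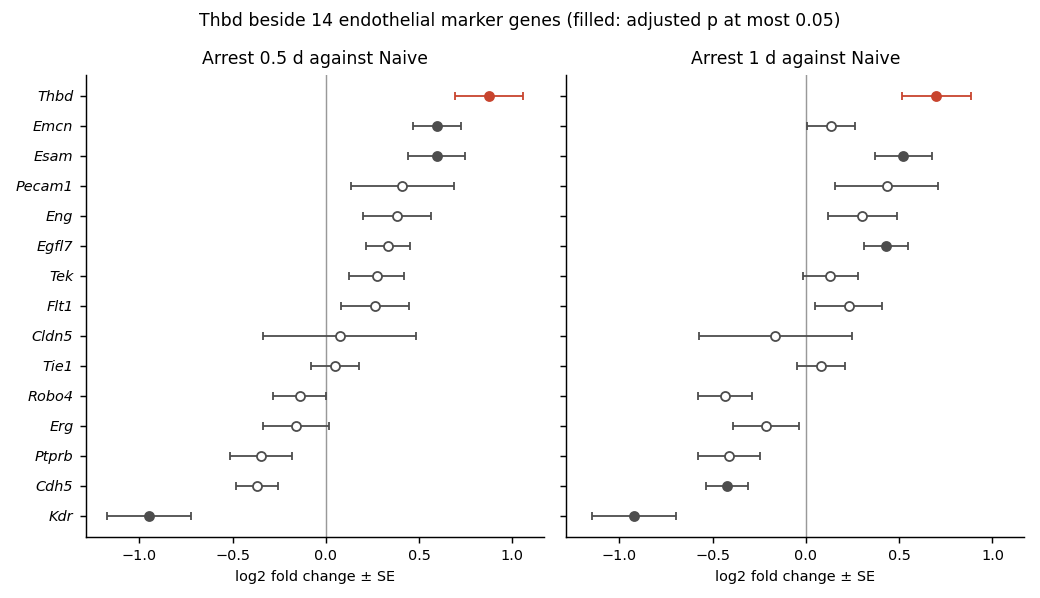
Fitted log2 fold change against Naive (horizontal axes) with its standard error for Thbd (red) and 14 endothelial marker genes (grey) in Arrest 0.5 d (left) and Arrest 1 d (right); filled points have a limma adjusted p of at most 0.05. Thbd lies at 0.88 and 0.70, Kdr at -0.95 and -0.92, and the other markers lie between them.

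Among 16 genes of inflammatory signalling in endothelium, all tested, 3 were called higher in both early Arrest groups and none lower. Of all genes tested, 1.75% were called higher at 0.5 d and 3.88% at 1 d. The TNF receptor gene Tnfrsf1a rose from 17.9 ± 2.48 FPKM in Naive (SD, n = 5) to 43.1 ± 2.002 at 0.5 d and 41.1 ± 5.12 at 1 d (SD, n = 4 each), log2 fold changes of 1.23 and 1.16 (limma adjusted p = 0.000539 and 0.000434). Lrg1, a secreted glycoprotein of inflamed vessels and liver, rose from 8.47 ± 3.29 to 55.9 ± 27.2 and 47.0 ± 23.2 FPKM. Socs3, a feedback inhibitor of cytokine receptors, rose from 2.57 ± 1.12 to 14.4 ± 7.57 and 10.3 ± 3.11 FPKM. In Arrest 0.5 d and in Arrest 1 d, 3 genes of the list were also called higher than in Arrest 7 d. In these comparisons 0.381% and 1.89% of all genes were called in either direction. Between Arrest and Adr, 0 genes of the list were called by limma at 0.5 or 1 d, where 0% of all genes were. The median change of the list was 0.23 at 0.5 d and 0.14 at 1 d.

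Junction and adhesion genes of endothelium (10 of 13 tested) moved in both directions. Esam was called higher at both times, Cdh5 and Jam2 (-0.43) were called lower in Arrest 1 d, and the list's median was -0.08 and -0.16. Over all 16530 genes tested, 290 and 641 were called higher at these times, and 535 lower in Arrest 1 d. Of the 8 flow-responsive genes, a list that includes Klf2 and Klf4, transcription factors that raise thrombomodulin in endothelium, only Klf4 was called. It rose in Arrest 1 d from 24.0 ± 6.09 to 48.1 ± 19.7 FPKM. The fitted rise was 0.91 on the log2 scale (SE 0.28, limma adjusted p = 0.0426), beside 0.49 at 0.5 d (SE 0.28, limma adjusted p = 0.369). The median change of this list was 0.28 at 0.5 d and 0.35 at 1 d.

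Leukocyte counterparts of the adhesion molecules were uncalled by limma in all comparisons (8 of 11 tested), and in those with Naive 4 of 64 tests had an unadjusted p of at most 0.05, against 13.4% of the tests of all genes over the same 8 comparisons. Itgb2, the beta chain of LFA-1 and Mac-1, was at 8.73 ± 3.30 FPKM in Arrest 0.5 d against 3.26 ± 1.90 in Naive (log2 fold change 1.23, SE 0.47, limma adjusted p = 0.143), and Itgam at 2.67 ± 1.51 against 0.866 ± 0.410. The neutrophil markers were uncalled by limma too (6 of 9 tested, 10 of 48 unadjusted tests against Naive passing, beside the 13.4% of all genes), with a median change of 1.00 in Arrest 0.5 d and 0.85 in Arrest 1 d. In Arrest 0.5 d alone 4 of 6 neutrophil markers passed unadjusted, beside 18.2% of all genes. S100a8 was at 6.14 ± 4.45 FPKM in Arrest 0.5 d against 0.566 ± 0.634 (limma adjusted p = 0.0975), and Retnlg, listed at 0 in all Naive libraries, at 2.49 ± 2.32. The summed neutrophil markers lay between 5.54 and 35.9 FPKM in Arrest 0.5 d and between 0 and 10.1 in Naive. Their part in the Selp and Icam1 levels was not tested.

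Genes of clot formation itself were scarce in the tissue. The list read here held coagulation factors, fibrinogen and the transport genes Lman1 and Mcfd2. Of its 15 genes 5 were tested, and F12 was at 0 in every library. None was called by limma in any comparison with Naive, where 8 of 40 tests passed unadjusted, beside 13.4% for all genes. In Arrest 0.5 d alone 4 of 5 passed unadjusted, beside 18.2% of all genes, with a median change of 0.56, and the summed list lay between 59.6 and 74.4 FPKM against 42.9 to 56.8 in Naive, without overlap. Mcfd2, a transport factor for clotting factors, was at 34.5 ± 1.94 FPKM in Arrest 0.5 d against 28.8 ± 2.87, and F10 at 0.786 ± 1.06 against 0.0163 ± 0.0365. Mcfd2 thus made up much of the summed list, whose means were 66.55 and 50.69 FPKM. No share over all genes was computed for a separation of sums. Of 4 thrombin receptors 3 were tested and none called by limma (2 of 24 tests against Naive passing unadjusted), with F2r at 16.2 ± 2.72 FPKM in Arrest 0.5 d against 17.6 ± 4.26 and F2rl3 at 0.349 ± 0.467 against 0.847 ± 0.413. Of 11 further anticoagulant genes 7 were tested and none called by limma (5 of 56 tests passing unadjusted), and Proc, which encodes the zymogen that thrombomodulin and thrombin activate, was at 0 in every library. Entpd1, which removes extracellular ATP and ADP, was at 15.9 ± 4.54 FPKM in Arrest 0.5 d against 8.14 ± 1.02 (limma adjusted p = 0.1), and Pros1, the cofactor protein S, at 12.3 ± 2.50 against 9.86 ± 1.65.

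Fibrinolysis genes, the pathway of Plat, gave more calls (8 of 12 tested). Plaur, the urokinase receptor, was called higher in Arrest 0.5 d (log2 fold change 1.62, SE 0.38, limma adjusted p = 0.0168). Its 4 libraries held 2.37, 15.8, 2.51 and 3.55 FPKM, against 0 to 2.25 in Naive. Without the second, Arrest 0.5 d replicate 2, the change was 1.08 and the call was lost (limma adjusted p = 0.121). Serpine2, protease nexin 1, an inhibitor of thrombin and plasminogen activators, rose from 3.81 ± 0.750 to 6.40 ± 0.875 FPKM at 0.5 d and 6.79 ± 0.723 at 1 d (limma adjusted p = 0.0431 and 0.0134). Plgrkt, a plasminogen receptor, rose in Adr 1 d from 3.53 ± 1.33 to 6.07 ± 0.726 FPKM (limma adjusted p = 0.0386). The list's median change was 0.62 in Arrest 0.5 d, 0.54 in Adr 1 d and 0.52 in Arrest 1 d. Its calls in these groups were 2, 1 and 1 of 8. Of all genes, 1.75% were called higher in Arrest 0.5 d and 3.88% in Arrest 1 d, and 0.69% in either direction in Adr 1 d.

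Other cell types were checked by their markers. Of all 16530 genes tested, 3.88% were called higher in Arrest 1 d. Called lower were 241 in Arrest 0.5 d, 535 in Arrest 1 d and 52 in Adr 1 d. Of the 8 tested platelet markers, Clec1b alone was called, in Arrest 1 d, at 0.570 ± 0.150 against 0.115 ± 0.108 FPKM, and the list's median was 0.15 at 0.5 d and 0.10 at 1 d. Among the 8 smooth muscle and pericyte markers, Abcc9 was called lower in Arrest 0.5 d (-1.01) and 1 d (-1.16) and Myh11 lower in Adr 1 d (-1.09) and Arrest 1 d (-0.90). No venous and endocardial, macrophage, fibroblast, mesothelial, ventricular, atrial or red blood cell marker was called by limma in any comparison with Naive. Of their unadjusted tests over the 8 comparisons, 7 of 48 passed for venous and endocardial markers, 18 of 88 for macrophage, 10 of 64 for fibroblast, 6 of 48 for mesothelial, 10 of 64 for ventricular, 7 of 40 for atrial and 6 of 40 for red blood cell markers, beside 13.4% of the tests of all genes. These passes were uneven over the groups. In Adr 3 d, 8 of 11 macrophage (median change 0.76) and 5 of 8 ventricular markers (-0.61) passed, beside 13.9% of all genes. In Arrest 3 d, 7 of 11 macrophage (0.69) and 5 of 5 red blood cell markers (-0.94) passed, beside 13.7%. Of 5 atrial markers, 3 passed in Adr 1 d (2.67), beside 14.7%, and 4 in Adr 7 d (2.22), beside 6.15%. Uncalled examples in Arrest 0.5 d were Krt19 of mesothelium (log2 fold change 1.75, limma adjusted p = 0.0886) and Aplnr of veins (-1.58, limma adjusted p = 0.074). Plvap was at 46.4 ± 17.4 FPKM against 25.7 ± 8.90, C1qc at 50.8 ± 7.01 against 35.1 ± 7.77, Cd68 at 17.1 ± 3.02 against 8.86 ± 2.08, and Ryr2 at 30.1 ± 4.49 against 42.4 ± 1.80. The lists did not all follow these genes. Their median changes in Arrest 0.5 d were 0.34 for mesothelial, 0.17 for venous and endocardial, 0.32 for macrophage and -0.02 for ventricular markers. In Arrest 1 d Lum was at 33.9 ± 4.21 FPKM against 66.8 ± 20.5 and Hba-a1 at 535 ± 46.1 against 860 ± 269. The median change there was -0.09 for fibroblast and -0.63 for red blood cell markers. The summed atrial markers reached 694 FPKM in an Adr 1 d library against at most 33.3 in Naive, with a median change of 2.67 in that group, and their part in the Adr levels was not tested. The clock genes Nr1d1 (-0.82) and Dbp (-1.50) were called lower in Arrest 0.5 d, where the hour of collection is not given in the labels, and none was called in Arrest 1 d.

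The calls of the named list genes were also read with each library left out. Of the 11 such calls in Arrest 0.5 d, those of Tnfrsf1a and Lrg1 stood in all 37 fits, and the other 9 (Esam, Socs3, Plaur, Serpine2, Kdr, Emcn, Abcc9, Nr1d1 and Dbp) were lost without Arrest 0.5 d replicate 2, as was that of Thbd. Of the 13 in Arrest 1 d, those of Tnfrsf1a, Lrg1 and Abcc9 stood in all 37, and the others in 29 to 36. Jam2 was the least stable of these, and Klf4 was at 0.69 without Arrest 1 d replicate 3 (limma adjusted p = 0.208). Plgrkt and Myh11 in Adr 1 d stood in 31 and 32 fits.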

How the data were processed

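RNA of left ventricular tissue was sequenced in paired ends, and the authors aligned reads with HISAT2 2.0.5. They deposited FPKM per gene and library, without pooling. Every library had the same median ratio to the geometric mean, so the deposited FPKM had already been scaled between libraries. The counting tool, annotation and genome build were not given in the sources used here. Every non-zero value was a whole multiple of what 1 fragment was worth (tolerance 0.01), which gave fragments per gene. The number of unused sample columns was 0. Promoters came from RefSeq (GRCm38.p6), and their coordinates are not those of the deposited table.

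FPKM were rescaled by median ratios, and genes reaching 0.5 FPKM in 4 or more libraries were kept. log2(FPKM + 1) was fitted with limma 3.58.1 (R 4.3.3), with a mean-variance trend and 18 comparisons. The deposited FPKM were tested on the log scale, and the recovered fragments served for depth and as a scaling alternative, with no count test run. The script was tested on simulated data. Tables and plots were made with Python 3.11.15, pandas 2.3.3 and matplotlib 3.10.9.

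Besides the 9 genes, up to 4 called genes with the smallest adjusted p of each list were named, or up to 2 with the smallest unadjusted p where none was called, and the 3 genes with the highest r, of which some are not reported here. The 9 genes, the lists and the tests were chosen with earlier results of these data known. Alternatives were another scaling, pseudocount or filter, a length trend, covariates, a replicate block, the 2 groups alone, sample weights and single libraries left out. Among the scalings, leaving out the rescaling changed only a factor common to all libraries. Leaving out Adr 3 d replicate 3 and Naive replicate 4 together, and reading the list genes without single libraries, were added after seeing the data. The study states that 1 Adr 3 d sample of poor quality was excluded, and 4 Adr 3 d libraries were analysed here.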

Additional observations from a re-analysis of the deposited data

Results flagged for a closer look

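Of 81 sets of values (9 genes in 9 groups), 10 held a library that stood apart from the rest of its group by Dixon's test at the 95% level, which chance alone gives in about 5% of sets. The sets share libraries, so they are not independent.

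Sele stood apart in Arrest 0.5 d replicate 2 (5.71 FPKM, the next at 0.873) and in Arrest 3 d replicate 1 (8.02, the next at 1.15). Selp stood apart in Arrest 3 d replicate 1 (3.20 FPKM, the next at 0.307) and, at a low level, in Naive replicate 2 (0.799, the next at 0.202). Thbd stood apart upwards in Arrest 0.5 d replicate 2 (73.4 FPKM, the next at 50.7), the library on which its call at 0.5 d rests, and downwards in Adr 1 d replicate 4 (28.9, the next at 36.8). Vwf stood apart in Adr 1 d replicate 3 (36.6 FPKM, the next at 21.6). Plat stood apart in Adr 3 d replicate 3 (10.98 FPKM, the next at 4.61), Adr 7 d replicate 1 (9.36, the next at 5.40) and Arrest 7 d replicate 2 (6.94, the next at 4.64).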

How the results depend on the processing

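The number of the 9 genes called in Arrest 0.5 d was 2, and it was 1 with quantile normalization, scaling by fragments, no filter, a filter at a mean of 1 FPKM (which drops Sele and Selp), the length trend removed, sex or description number as covariate, or the 2 groups alone. It lay between 0 and 3 with single libraries left out. In Arrest 1 d it was 1, and 0 with quantile normalization or the description number, and between 0 and 1 with single libraries left out. In Arrest 0.5 against 7 d it was 0, and 2 (Selp and Thbd) with sample weights. Icam1 in Arrest 1 d turned from 0.74 to -0.057 with the description number as covariate. The cause was not tested. The call lost at 0.5 d under these settings was that of Selp, and without Arrest 0.5 d replicate 2 that of Thbd was lost too. Thbd at 0.5 d kept its call in all 13 other settings (0.75 to 0.90) and in 36 of 37 fits without a library. Of the 13, the setting without rescaling changed only a factor common to all libraries, so it could hardly lose a call. In the other 15 comparisons the number stayed at 0 under each alternative.

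With a replicate block, the number called was 1 in Arrest 0.5 d (Thbd, log2 fold change 0.85) and 0 in Arrest 1 d (Thbd 0.67, limma adjusted p = 0.0539). Libraries of the same number did not on the whole deviate together (median r = 0.0017 over 144 pairs, -0.0029 over 464 pairs of different number). A median over all pairs and genes cannot show whether some libraries of the same number belong together.

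Low depth limits Sele, Selp and Procr, each with libraries at 0 fragments.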
